A study of Sus scrofa with 27 samples.

Results

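The genes described here encode proteins that seal and hold together the epithelial and endothelial cells of the lung: the claudins CLDN1, CLDN3, CLDN4, CLDN5, CLDN7 and CLDN18, occludin (OCLN), the scaffold protein ZO-1 (TJP1), E-cadherin (CDH1) and VE-cadherin (CDH5). They were chosen by name, as the rows of the count table that carry one of these 10 gene names, and 9 of the 10 were found among 31908 genes. The row of CLDN7 carries no name in the table, so CLDN7 was left out of all counts below and its values, matched by gene identifier, are given once. Each of the 9 genes had at least 10 counts in some library, and all 9 passed the filter on low counts in every comparison. Across the libraries they took 0.0986% to 0.342% of all counts.

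The study measured RNA in lung biopsies during ex vivo lung perfusion (EVLP), in which donor lungs are ventilated and perfused outside the body. Lungs of Large-White pigs, taken after circulatory arrest and a period of cold ischemia, were perfused by the Toronto protocol with Steen solution that held methylprednisolone, cefuroxime and heparin in both groups. In the Gold Standard group (GS; pigs 9, 17, 44, 55 and 77) part of the perfusate was replaced at intervals, and in the Pediatric Dialysis group (PD; pigs 2, 3, 4 and 5) a hemodialyzer with a pediatric membrane was placed on the circuit. Each of the 9 lungs was biopsied at 0h, after the cold ischemia and before perfusion, and again at 6h and 12h, which gives 27 libraries and 1 lung per pig. The ages of the pigs were not given in the sources used here. The comparisons ask how the genes changed during perfusion in each group, and whether they changed differently with dialysis.

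Tight junctions close the gap between neighbouring cells: claudin strands set which ions and solutes pass, occludin sits in the same strands, and ZO-1 ties both to the actin cytoskeleton. Adherens junctions hold cells together through cadherins, E-cadherin in epithelium and VE-cadherin in endothelium. In the lung, CLDN18, CLDN3 and CLDN4 are the main claudins of the alveolar epithelium and CLDN5 is the main claudin of endothelium, and edema forms when these barriers leak.

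Facts on the libraries bear on the values. The counts per library totalled 26335584 to 67522703 in GS and 14650700 to 21820935 in PD, so no PD library was as deep as any GS library, and group and depth cannot be told apart. In the shallowest library of each group, 3 counts equal 0.114 CPM (GS) and 0.205 CPM (PD) by total counts, which is under the level of the 9 genes in every library. CPM is the count relative to library size, scaled by TMM for the levels below. Libraries also differed in how long and short transcripts were represented: an index of long against short genes (the median log2 deviation of the upper quartile of genes by exon length minus that of the lower quartile) was 0.058 to 0.78 in GS and −1.82 to −0.0063 in PD. The lowest index belonged to PD pig 2 at 12h (−1.82) and the next to PD pig 4 at 0h (−0.996), and both libraries stood apart from the other PD libraries (median correlation 0.861 and 0.862, against 0.911 or more in every other library). The main results in PD are given with and without them, an alternative chosen after seeing the data. RNA came from frozen slices or from tissue kept in RNAlater by 2 extraction methods, and the labels do not say which library had which. Markers of alveolar type 2 cells, which make surfactant, were high in all libraries, with a summed level of 4874 to 14171 CPM in GS and 15172 to 87350 CPM in PD.

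CDH1 and OCLN were the members that rose at both times in GS, and the 250 bases before their RefSeq starts in Sscrofa11.1 are shown because CAGGTG is the E-box that the CDH1 repressors SNAI1 and ZEB2 are known to bind. The CDH1 window lies on the minus strand at chr6:18155987-18156236 and the OCLN window on the plus strand at chr16:47599925-47600174, and capitals mark CAGGTG or its reverse CACCTG.
CDH1: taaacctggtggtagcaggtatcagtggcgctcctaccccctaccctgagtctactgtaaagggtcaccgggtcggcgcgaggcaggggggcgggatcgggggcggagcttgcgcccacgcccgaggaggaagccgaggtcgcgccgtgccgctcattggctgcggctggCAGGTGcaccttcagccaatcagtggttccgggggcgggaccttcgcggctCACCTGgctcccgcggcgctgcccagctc
OCLN: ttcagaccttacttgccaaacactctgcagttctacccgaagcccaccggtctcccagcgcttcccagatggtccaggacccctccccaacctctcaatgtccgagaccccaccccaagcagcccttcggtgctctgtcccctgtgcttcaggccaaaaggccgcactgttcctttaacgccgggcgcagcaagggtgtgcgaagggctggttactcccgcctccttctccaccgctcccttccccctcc
The letters occur at 2 places in the CDH1 window, starting 80 and 29 bases before the gene start, and at none in the OCLN window. They also occur at 2 places in the window of CLDN4 and at 1 each in those of CLDN3 and CLDN18. The main fit called none of these 3 genes in GS. The windows of CLDN1, CLDN5, TJP1 and CDH5 do not hold the letters. Of all 20653 promoters of protein-coding genes of this length, 19.4% held them on either strand. The GC box GGGCGG, read on both strands, occurred 3 times in the CDH1 window and not in that of OCLN, and 44.4% of all windows held it. The AP-1 motif TGANTCA, which equals its own reverse complement in form, was found in neither, and 5.48% of all windows held it. The count table places the start of OCLN 323 bases further downstream than RefSeq does, whereas for CDH1 both gave the same base. A match of letters is a description and not a binding site.

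E-cadherin, the cadherin of epithelial adherens junctions, rose in every lung of GS. CDH1 (ENSSSCG00000025652, chromosome 6, 18075480 to 18155986) stood at 495, 246, 363, 396 and 445 CPM at 0h in GS pigs 9, 17, 44, 55 and 77. At 6h the same pigs had 1074, 552, 928, 604 and 727 CPM, and at 12h 621, 746, 1166, 1077 and 1014 CPM. The 0h values lay below all values at 6h and 12h, where 5.82% and 6.76% of all genes were higher than at 0h without overlap. The log2 fold change was 0.98 ± 0.19 (SE) at 6h, with an adjusted p of 0.00321 in edgeR's quasi-likelihood test, and 1.24 ± 0.20 at 12h, with an adjusted p of 0.000575 by the same test. It was called in every alternative fit run at both times, apart from the fold threshold of 2, which it missed at 6h.

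In PD, CDH1 was at 454, 437, 448 and 413 CPM at 0h in pigs 2, 3, 4 and 5. It was at 748, 490, 1108 and 487 CPM at 6h and at 835, 984, 991 and 852 CPM at 12h. All 4 pigs were higher at both times than at 0h. The log2 fold change of 0.63 ± 0.32 at 6h was not called (edgeR, adjusted p = 0.576), nor was that of 1.06 ± 0.32 at 12h (edgeR, adjusted p = 0.0735). With PD pig 2 at 12h and PD pig 4 at 0h left out, the changes of CDH1 were 0.53 ± 0.31, which was not called, and 1.03 ± 0.34, which passed in edgeR (adjusted p = 0.0353). In all, the 12h change passed in 5 of 13 alternatives, and it was not called without pig 3, 4 or 5, without the pig as a block or with only the 2 times compared.

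Some markers of epithelium moved with CDH1 in GS. Of the 5 general epithelial genes listed, 4 were in the table. EPCAM, KRT8 and KRT18 rose in GS at both times, by 1.58, 1.18 and 0.84 on the log2 scale at 12h (edgeR, adjusted p of 0.000132, 0.00025 and 0.00395), and KRT7 did not pass (0.49). The summed level of the 4 was 182 to 334 CPM at 0h, 378 to 705 CPM at 6h and 539 to 673 CPM at 12h in GS. In PD it was 432 to 592 CPM at 0h, 517 to 890 CPM at 6h and 997 to 3003 CPM at 12h. At 6h in PD CDH1 was higher in 4 of 4 pigs. EPCAM was then higher in 4, KRT8 in 2 and KRT18 and KRT7 in 1 each. The median log2 fold change of the 4 markers was 0.0068. At 12h in PD EPCAM, KRT8 and KRT18 were higher in 4 of 4 pigs and KRT7 in 3. Their median was 1.43, and none of the 4 was called (edgeR). Markers of single epithelial cell types were counted in GS at 12h, and their lists were not tested as sets. Of 4 airway markers 1 rose and 2 fell (median −0.68), and of 4 markers each of alveolar type 1 and type 2 cells 1 rose and none fell (medians −0.098 and 0.25). Of 5 leukocyte markers, PTPRC fell at both times in GS (−0.57 and −0.79) and CD3E at 12h (−0.60), and of 2 erythroid markers tested HBB fell at both (−1.57 and −1.50; edgeR, adjusted p of 0.00844, 0.000876, 0.0145, 0.0246 and 0.0189). The part of all these markers in the rise of CDH1 was not tested, and in bulk tissue a larger share of a cell type and more RNA per cell cannot be told apart.

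Occludin, a membrane protein of the tight junction strand, also rose in every GS lung, by less. OCLN (ENSSSCG00000021514, chromosome 16, 47600498 to 47654033) went from 78.0, 106, 75.1, 67.9 and 96.7 CPM at 0h to 140, 186, 110, 97.3 and 102 CPM at 6h and 98.4, 209, 125, 117 and 136 CPM at 12h. The 3 times overlapped across pigs, and each pig was above its own 0h value at both times. The log2 fold change was 0.55 ± 0.14 at 6h and 0.64 ± 0.14 at 12h (edgeR, adjusted p of 0.0117 and 0.00387). Without the pig as a block neither was called (0.58 and 0.66, edgeR, adjusted p of 0.133 and 0.0640).

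In PD, OCLN went from 113, 127, 69.2 and 99.98 CPM at 0h to 164, 187, 223 and 177 CPM at 6h, and to 95.7, 224, 233 and 168 CPM at 12h. The 6h values did not overlap with those at 0h, which held for 5.5% of all genes, and at 12h pig 2 alone was below its own start. The changes of 0.87 ± 0.34 at 6h and 0.76 ± 0.34 at 12h were not called (edgeR, adjusted p of 0.455 and 0.199). The 12h change passed in 3 of 13 alternatives: without PD pig 2 (1.06, edgeR, adjusted p = 0.0318), in the fit of all 27 libraries and with the length and GC dependence removed. It did not pass with both libraries that stood apart left out (0.77, edgeR, adjusted p = 0.0675).

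CLDN1, a claudin of stratified and airway epithelium, was low at 0h and spread widely by 12h. CLDN1 (ENSSSCG00000040904, chromosome 13, 127712767 to 127730657) was at 15.1, 19.4, 20.3, 15.3 and 20.3 CPM at 0h in the GS pigs, at 22.5, 19.2, 17.1, 36.5 and 43.6 CPM at 6h, and at 10.3, 27.1, 36.7, 68.9 and 50.6 CPM at 12h. Pig 9 was below its own start at 12h and the other 4 pigs were above theirs. The change at 12h was called (0.86 ± 0.31, edgeR, adjusted p = 0.0422) and that at 6h was not (0.50 ± 0.31, adjusted p = 0.239). The call at 12h was lost without pig 17, 44, 55 or 77 (changes of 0.55 to 0.98), and without the pig as a block (1.05, adjusted p = 0.0648).

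In PD, CLDN1 was at 42.8, 58.8, 19.6 and 28.5 CPM at 0h, at 90.2, 54.6, 65.5 and 65.4 CPM at 6h and at 72.9, 41.4, 42.5 and 63.7 CPM at 12h. Pig 3 was the only PD pig that ended lower than it began. Neither change was called (0.94 ± 0.37 and 0.59 ± 0.37, edgeR, adjusted p of 0.455 and 0.349).

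**Figure D1:**
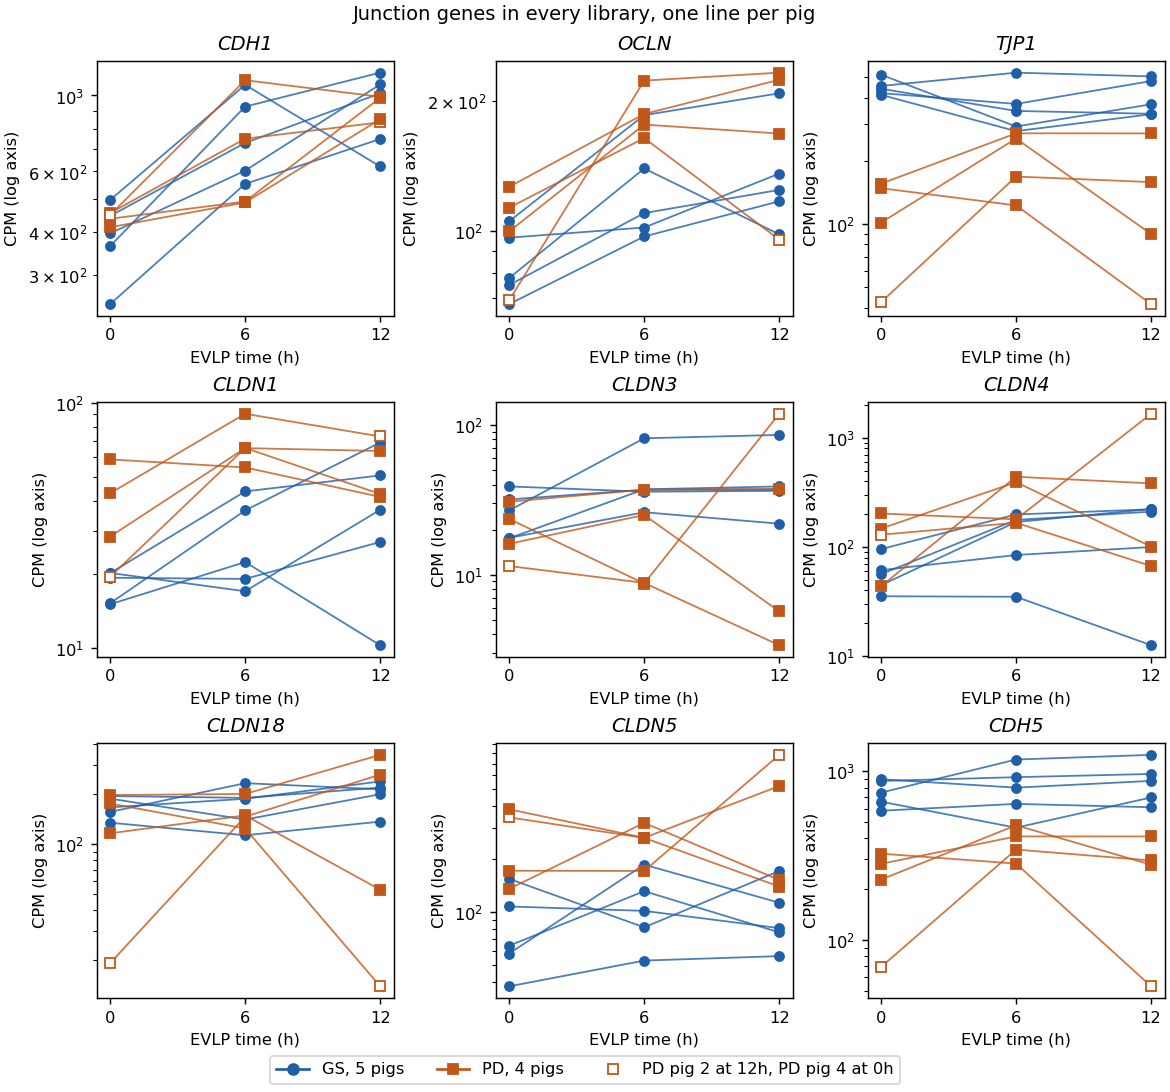
CPM on a log axis against EVLP time for the 9 genes, with 1 line per pig, GS in blue circles and PD in orange squares; open squares mark the 2 PD libraries that stood apart. CDH1 climbs in all 9 pigs, whereas TJP1 and CDH5 separate the groups at 0h and dip in the open squares.

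The alveolar claudins moved less evenly. CLDN4, which is induced in injured alveolar epithelium, went from 35.3, 61.3, 95.5, 56.3 and 44.6 CPM at 0h in GS pigs 9, 17, 44, 55 and 77 to 34.9, 84.3, 198, 177 and 169 CPM at 6h and 12.6, 99.8, 221, 211 and 223 CPM at 12h. Pigs 17, 44, 55 and 77 were above their start at both times, and pig 9 ended lowest of all 27 libraries. The changes of CLDN4 (ENSSSCG00000007718, chromosome 3, 11039706 to 11053925) missed the call (0.89 ± 0.37 and 0.93 ± 0.39, edgeR, adjusted p of 0.0918 and 0.0709), but DESeq2 called both (adjusted p of 0.0418 and 0.0218). Without pig 9 they were 1.25 and 1.51 and both passed (edgeR, adjusted p of 0.0045 and 0.00091). After removal of each library's dependence on exon length and GC, also chosen after seeing the data, CLDN4 changed by 0.80 and 0.83 and was not called.

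In PD, CLDN4 was at 203, 147, 129 and 43.6 CPM at 0h, at 179, 392, 166 and 440 CPM at 6h, and at 1660.5, 100.7, 66.9 and 382 CPM at 12h. The highest value of all 27 libraries was that of PD pig 2 at 12h, while pigs 3 and 4 ended below their start. The fitted changes of 1.27 ± 0.81 and 1.34 ± 0.89 were not called (edgeR, adjusted p of 0.631 and 0.385). Without 1 pig at a time they ranged from 0.73 to 1.76 at 6h and from 0.33 to 2.18 at 12h.

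CLDN3, the near neighbour of CLDN4 on chromosome 3 (ENSSSCG00000035928, 11019295 to 11019960), was at 17.6, 26.9, 38.8, 17.5 and 31.8 CPM at 0h in GS, at 26.1, 81.4, 35.8, 37.2 and 36.9 CPM at 6h, and at 21.9, 85.8, 36.3, 38.8 and 37.0 CPM at 12h. Pig 17 reached more than any other pig, and pig 44 did not gain. The changes of 0.61 ± 0.23 and 0.57 ± 0.23 were not called (edgeR, adjusted p of 0.0604 and 0.061), but DESeq2 called both (adjusted p of 0.028 and 0.0246), as did edgeR with the size factors of DESeq2 (adjusted p of 0.0497 and 0.0426). In PD the 4 pigs began at 23.5, 16.1, 11.4 and 30.7 CPM, had 8.73, 25.04, 8.81 and 36.9 CPM at 6h and ended at 119, 5.68, 3.38 and 37.4 CPM. PD pig 2 at 12h held the highest CLDN3 of all libraries and PD pig 4 at 12h the lowest. The fitted changes in PD were 0.032 ± 0.76 and 0.20 ± 0.85 and were not called (edgeR, adjusted p of 0.989 and 0.909).

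CLDN18, the claudin most typical of alveolar epithelium, had no called change in GS (ENSSSCG00000011657, chromosome 13, 78794579 to 78822821). It was at 134, 167, 156, 195 and 188 CPM at 0h, at 113, 188, 233, 190 and 141 CPM at 6h and at 137, 239, 214, 219 and 200 CPM at 12h, with changes of −0.01 ± 0.13 and 0.21 ± 0.13 that missed the call (edgeR, adjusted p of 0.979 and 0.233). At 12h it was above its start in 5 of 5 pigs, by 0.022 to 0.52. In PD it was at 176, 198, 19.0 and 116 CPM at 0h, at 124, 201, 146 and 149 CPM at 6h, and at 13.8, 346, 262 and 53.0 CPM at 12h. The 2 lowest values of all 27 libraries were those of PD pig 2 at 12h and PD pig 4 at 0h, and the fitted changes of 0.28 ± 0.81 and 0.080 ± 0.93 were not called (edgeR, adjusted p of 0.903 and 0.969).

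CLDN5, the claudin of endothelial tight junctions (ENSSSCG00000041667, chromosome 14, 51161032 to 51163482), had no common direction. In GS it was at 37.8, 155, 64.4, 108 and 58.1 CPM at 0h, at 53.0, 81.9, 132, 102 and 186 CPM at 6h and at 56.2, 172, 76.7, 81.1 and 113 CPM at 12h. In PD it was at 172, 136, 346 and 385 CPM at 0h, at 171, 322, 264 and 265 CPM at 6h and at 785, 152, 140 and 522 CPM at 12h. The ranges of the time points overlapped in both groups. No change was called (log2 fold changes of 0.45 and 0.23 in GS and 0.10 and 0.50 in PD, edgeR, adjusted p of 0.244, 0.526, 0.956 and 0.656). With the length and GC dependence removed, the change in PD at 6h was 0.80 ± 0.29 and not called (edgeR, adjusted p = 0.239).

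CDH5, the cadherin that joins endothelial cells (ENSSSCG00000035772, chromosome 6, 27108609 to 27142180), was at 584, 661, 877, 897 and 748 CPM at 0h in GS, at 641, 463, 923, 800 and 1175 CPM at 6h and at 612, 700, 965, 877 and 1252 CPM at 12h. Pig 77 gained most, and the changes of 0.02 ± 0.14 and 0.16 ± 0.14 were not called (edgeR, adjusted p of 0.939 and 0.402). In PD it was at 325, 283, 69.1 and 228 CPM at 0h, at 284, 411, 343 and 479 CPM at 6h and at 53.1, 411, 296 and 279 CPM at 12h. The lowest values were again those of PD pig 4 at 0h and PD pig 2 at 12h, and the fitted changes of 0.75 ± 0.57 and 0.13 ± 0.60 were not called (edgeR, adjusted p of 0.661 and 0.917).

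ZO-1, the scaffold under the tight junction, was the member with a negative fitted change at both times in GS. TJP1 (ENSSSCG00000004854, chromosome 1, 144930368 to 145195836) was at 454, 420, 412, 440 and 514 CPM at 0h, at 525, 373, 277, 345 and 291 CPM at 6h and at 504, 479, 333, 335 and 371 CPM at 12h. Pigs 44, 55 and 77 were below their start at both times and pig 9 was above it. The index of long against short genes fell in pigs 44, 55 and 77, from 0.43, 0.40 and 0.50 at 0h to 0.14, 0.16 and 0.14 at 12h. It rose in pig 9, from 0.63 to 0.72. In pig 17 it fell from 0.71 to 0.61, whereas TJP1 was lower at 6h and higher at 12h. The part of length in these changes was not tested. The changes of −0.36 ± 0.14 and −0.21 ± 0.14 were not called (edgeR, adjusted p of 0.0756 and 0.257), and with total counts alone as the scaling they were −0.53 and −0.44 and passed (edgeR, adjusted p of 0.0191 and 0.0326). That scaling also moved the median of all genes to −0.22 and −0.30 and the genes called in GS from 2533 higher and 2762 lower to 1762 and 4409 at 6h, and from 3268 and 3868 to 2152 and 6258 at 12h. Without pig 9 the 6h change of TJP1 was −0.47 and passed (edgeR, adjusted p = 0.0290). In PD TJP1 was at 148, 156, 42.5 and 102 CPM at 0h, at 123, 270, 168 and 255 CPM at 6h and at 41.7, 270, 158 and 89.7 CPM at 12h, with no call (0.84 ± 0.51 and 0.18 ± 0.52, edgeR, adjusted p of 0.618 and 0.87).

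With PD pig 2 at 12h and PD pig 4 at 0h left out, the changes in PD at 6h were 0.63 for TJP1, 0.51 for CDH5, 0.44 for CLDN5, 1.43 for CLDN4, 0.74 for CLDN1, 0.68 for OCLN, −0.086 for CLDN18 and −0.023 for CLDN3. At 12h they were 0.24 for TJP1, 0.27 for CDH5, 0.10 for CLDN5, 0.63 for CLDN4, 0.34 for CLDN1, 0.11 for CLDN18 and −0.91 for CLDN3. None of these was called, and CDH1 at 12h, given above, was the member that was (edgeR).

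**Figure D2:**
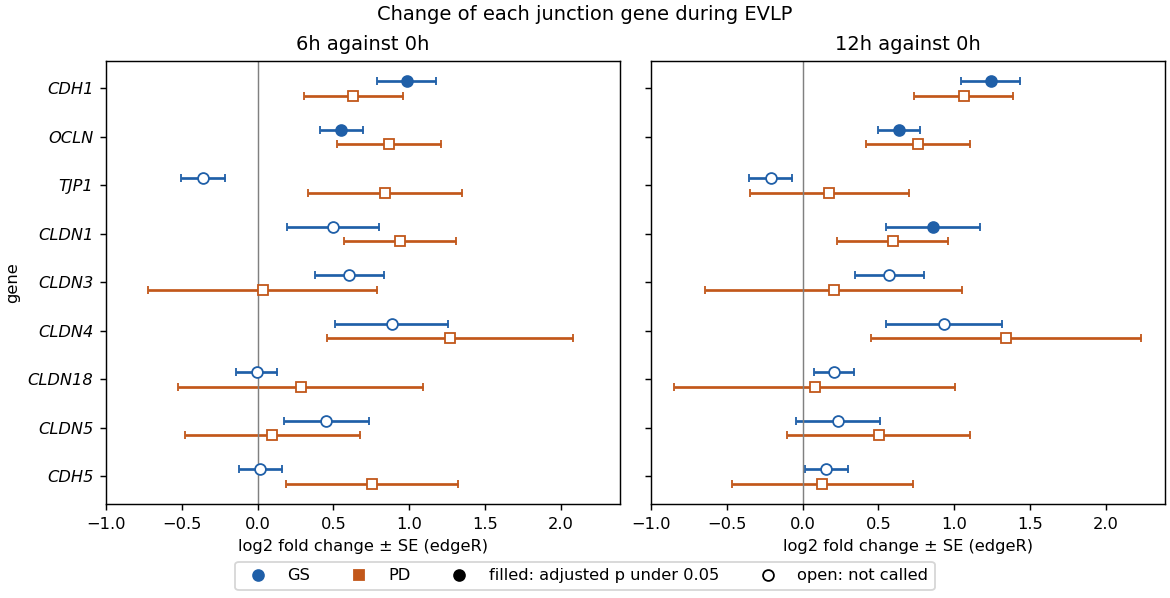
Fitted log2 fold change ± SE of each gene at 6h and 12h against 0h, GS circles from 5 pigs and PD squares from 4, filled where the edgeR adjusted p was under 0.05. Only GS points are filled, CDH1 and OCLN at both times and CLDN1 at 12h, and the PD error bars are wider.

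In counts, 2 of the 9 genes were called at 6h in GS, both higher, where 28.5% of all genes tested were called. At 12h in GS 3 of 9 were called, all higher, where 38.4% of all genes tested were called. Higher calls alone made up 13.6% and 17.6% of genes at those times. DESeq2 called CDH1, OCLN, CLDN3 and CLDN4, 4 of 9 members, at 6h in GS and these and CLDN1, 5 of 9, at 12h, where it called 34.1% and 43.2% of all genes. The median log2 fold change of the 9 was 0.50 at 6h and 0.57 at 12h in GS, beside −0.053 and −0.076 over all genes tested. No member was called in PD at 6h, where 0.142% of all genes tested were called, or at 12h, where 5.98% were, by edgeR, and 2 members had an unadjusted p under 0.05 at each time. DESeq2 called no member at 6h and CDH1 at 12h, with 2.81% and 17.8% of all genes called. The calls in PD depend on single pigs: without pig 3 or without pig 5 edgeR called 0 genes at both times, and without pig 4 it called 0 at 6h, with 580 to 1029 genes at an unadjusted p under 0.05 at 6h and 1878 to 2091 at 12h in these fits. The median of the 9 in PD was 0.75 at 6h and 0.50 at 12h, beside −0.025 and −0.048 over all genes. Between 6h and 12h the main edgeR fit called no member and 0% of genes in either group, and no member had an unadjusted p under 0.05. In PD the edgeR fit of all 27 libraries called 492 of 17884 genes. The one without the 2 libraries that stood apart called 680 of 15651, and neither fit called a member. DESeq2 called no member, with 0.0108% of all genes called in GS and 1.51% in PD.

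The levels before perfusion differed between the groups for 5 of the 9 genes, 3 higher and 2 lower in PD, where 40.6% of all genes tested were called, 21.3% higher and 19.3% lower. TJP1 and CDH5 were lower in PD, by 1.96 ± 0.33 and 1.69 ± 0.37 on the log2 scale (edgeR, adjusted p of 0.000657 and 0.00349). For both genes all 4 PD pigs lay below all 5 GS pigs at 0h, as the values above show, where 17.2% of 17884 genes lay lower in PD without overlap. Without PD pig 4 the differences were −1.69 and −1.39, and both passed. TJP1 also lay lower in every PD library than in every GS library at 6h and at 12h, as did 9.01% and 10.8% of all genes.

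CLDN5, CLDN4 and CLDN1 were higher in PD at 0h, by 1.67 ± 0.42, 1.20 ± 0.39 and 1.09 ± 0.29 on the log2 scale (edgeR, adjusted p of 0.00751, 0.0259 and 0.00939). Each overlapped between the groups in at least 1 pig. CLDN4 lost its call without any 1 of GS pigs 9, 17, 55 and 77 and PD pigs 2 and 3, with differences of 0.91 to 1.19 (edgeR, adjusted p of 0.0504 to 0.0913), and CLDN4 and CLDN1 lost it under total counts (0.78 and 0.70, adjusted p of 0.111 and 0.0791), a scaling that moved the median of all genes to −0.40. CDH1 (0.21 ± 0.22), OCLN (0.32 ± 0.21), CLDN3 (−0.34 ± 0.32) and CLDN18 (−0.36 ± 0.46) were not called (edgeR, adjusted p of 0.465, 0.261, 0.43 and 0.56). The mean of CDH1 was 389 ± 94.3 CPM (SD, n = 5) in GS and 438 ± 18.3 CPM (SD, n = 4) in PD.

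**Figure D3:**
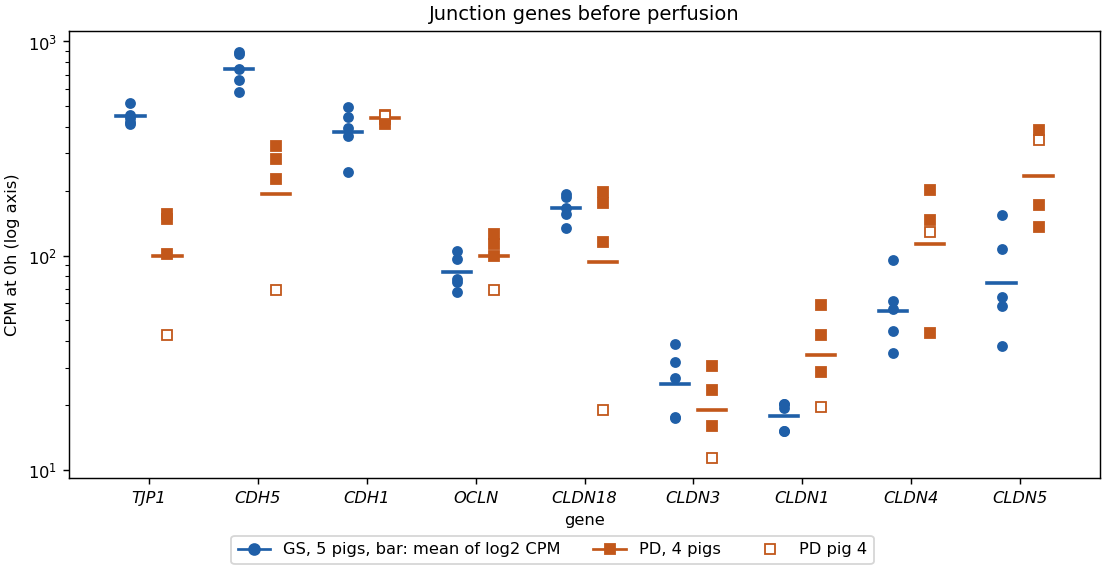
CPM of the 9 genes at 0h on a log axis, GS as blue circles from 5 pigs and PD as orange squares from 4, the bar at the mean of log2 CPM and PD pig 4 open. TJP1 and CDH5 do not overlap between the groups, whereas CLDN1, CLDN4 and CLDN5 are higher in most PD pigs.

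Group and length index cannot be told apart at 0h, since all 12 PD libraries had a lower index than all 15 GS libraries. RefSeq exon lengths were 7917 bases for TJP1 and 3881 for CDH5, which were lower in PD, and 893 for CLDN5, 1237 for CLDN1 and 1868 for CLDN4, which were higher. Those of the members that were not called were 5020 for OCLN, 4267 for CDH1, 3251 for CLDN18 and 790 for CLDN3, and the part of length in the differences was not tested. For CLDN5 the length is uncertain, since the count table gives it a span of 2451 bases and a start 1100 bases upstream of that in RefSeq. After the dependence on length and GC was removed, TJP1 and CDH5 remained lower in PD (−1.54 ± 0.29 and −1.28 ± 0.37, edgeR, adjusted p of 0.00205 and 0.0189). CLDN5 fell to 0.78 ± 0.28 (adjusted p = 0.0451), CLDN4 was 1.17 ± 0.42 (adjusted p = 0.0449), and CLDN1 was 0.20 ± 0.30 and no longer called (adjusted p = 0.617). CLDN3 was then called lower in PD, at −1.13 ± 0.38 (adjusted p = 0.036).

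Markers of several cell types, endothelium among them, differed at 0h. Of 7 endothelial markers, VWF, KDR, TIE1 and ERG were lower in PD, by 0.84, 1.21, 0.65 and 2.15 on the log2 scale (edgeR, adjusted p of 0.0474, 0.0436, 0.044 and 0.00265), and PECAM1, EGFL7 and ROBO4 were not called. The summed level of the 7 was 1403 to 2263 CPM in GS and 1226 to 1440 CPM in PD at 0h, and none of the 7 was at or near 0. In GS during perfusion KDR fell at both times and PECAM1 rose at 12h, and the other markers were not called. Of 5 leukocyte markers 4 were also lower in PD at 0h (median −0.95, beside −0.84 for the endothelial list), with a summed level of 1672 to 3204 CPM in GS and 626 to 1424 CPM in PD. The summed level of 3 erythroid markers was 0.36 to 10.4 CPM in GS and 51.7 to 237 CPM in PD, without overlap. That of 4 alveolar type 2 markers was 6382 to 8948 CPM in GS and 25809 to 76804 CPM in PD, also without overlap. Taken singly, 1 of these 4 was called higher and 1 lower in PD, with a median log2 difference of 0.51 (edgeR). The part of these markers in the differences of the members was not tested. Of the epithelial markers KRT8, KRT18 and KRT7 were higher in PD at 0h (1.78, 1.58 and 1.01), and EPCAM was not called (0.53).

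**Figure D4:**
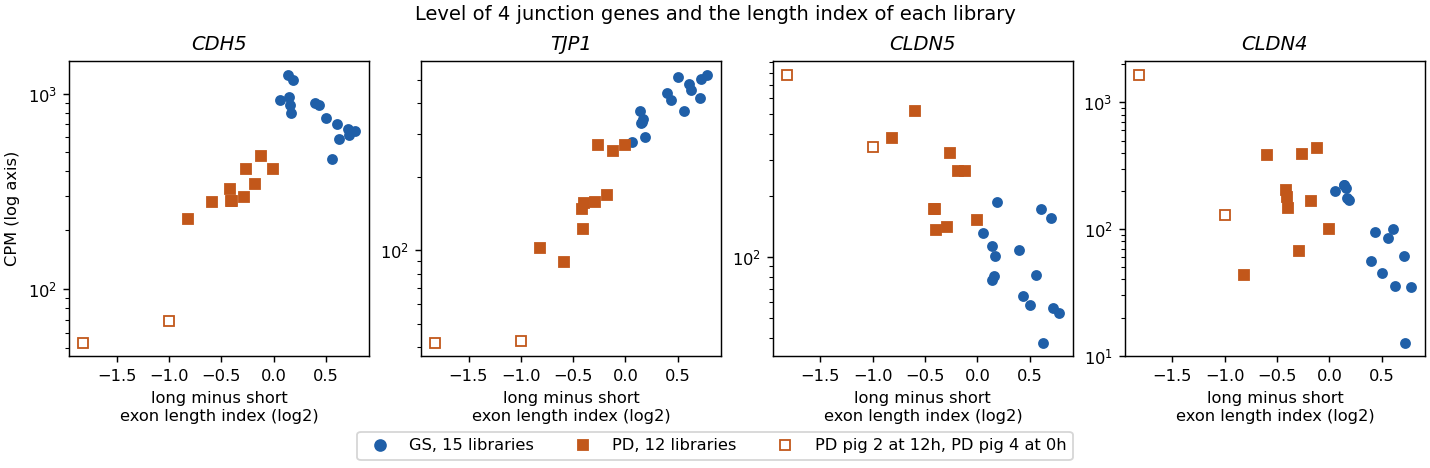
CPM on a log axis of CDH5, TJP1, CLDN5 and CLDN4 against the long minus short exon length index in 15 GS and 12 PD libraries, with PD pig 2 at 12h and PD pig 4 at 0h open. The 2 open squares, at −1.82 and −0.996, hold the lowest CDH5 and TJP1, and the one at −1.82 holds the highest CLDN5 and CLDN4.

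CLDN7, a claudin of epithelial lateral membranes, was measured by its identifier (ENSSSCG00000017934, chromosome 12, 52612507 to 52628362). It was at 20.2 to 33.5 CPM in GS and 96.3 to 188 CPM in PD at 0h, without overlap (15.2% of all genes lay higher in PD without overlap), and PD lay higher by 2.33 ± 0.24 on the log2 scale (edgeR, adjusted p = 2.75e-05). Its changes during perfusion were not called in either group (0.47 and 0.43 in GS, −0.41 and 0.20 in PD, edgeR, adjusted p of 0.0702, 0.0765, 0.756 and 0.843).

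Whether the changes from 0h differed between PD and GS was tested as an interaction. At 6h and at 12h edgeR called none of the 9 members and 0% of all 17884 genes, 1 member had an unadjusted p under 0.05 at 6h and none at 12h, and DESeq2 called no member and 0.0391% and 0.0839% of all genes. TJP1 had the largest difference at 6h, 1.18 ± 0.50 higher in PD, with an unadjusted p of 0.0302 and an adjusted p of 0.783 (edgeR). Without PD pig 2 it was 1.67 and passed (edgeR, adjusted p = 0.0392), in a fit that called 254 of 18568 genes at 6h and 153 at 12h. Leaving out each pig gave 0.89 to 1.67, and leaving out both libraries that stood apart gave 0.93 ± 0.35 (edgeR, adjusted p = 0.541). For CDH1 the difference was −0.37 ± 0.35 at 6h and −0.21 ± 0.35 at 12h, and for OCLN 0.29 ± 0.34 and 0.09 ± 0.34 (edgeR, adjusted p of 0.826, 0.961, 0.857 and 0.987), and these errors are as large as or larger than most of the differences.

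Ratios of 2 genes within a library do not depend on scaling. The log2 ratio of CDH1 to CDH5, the epithelial against the endothelial cadherin, was −0.97 ± 0.48 (SD, n = 5) at 0h in GS and rose in 5 of 5 pigs, by 0.95 ± 0.61 at 6h and 1.05 ± 0.64 at 12h. In PD it began at 1.16 ± 1.03 (SD, n = 4) and changed by −0.32 ± 0.87 at 6h and 0.98 ± 1.85 at 12h. Without PD pig 4 the change at 6h was −0.095 ± 0.91 (SD, n = 3), and without PD pigs 2 and 4 that at 12h was 0.69 ± 0.086 (SD, n = 2). The change at 6h was 1.28 log2 units smaller in PD, a difference of −1.28 (exact two-sided permutation test of the 9 pigs, p = 0.0476, adjusted p = 0.381 over 8 comparisons), and at 12h it differed by −0.066 (exact permutation test, p = 0.929). With the same pigs left out the differences were −1.05 and −0.35 (exact permutation test, p of 0.107 and 0.429). The smallest p that 9 pigs allow is 0.00794. The other 3 ratios, CLDN18 to CLDN5, CLDN4 to CLDN18 and CLDN3 to CLDN4, gave differences of −1.11 to 1.06 with unadjusted exact permutation p of 0.214 to 0.833. The ratio of CLDN3 to CLDN4 was lower than at 0h in 4 of 4 PD pigs at both times, by 1.46 and 1.32 log2 units on average (changes of −1.46 and −1.32), and in 3 of 5 GS pigs. With those pigs left out the PD changes were −1.70 and −1.90.

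Per kilobase of RefSeq exon, a scale that only approximates the gene models counted, the order at 0h in GS ran from CDH5 (194 ± 34.9, SD, n = 5) over CLDN5 (94.6 ± 52.3), CDH1 (91.2 ± 22.1), TJP1 (56.6 ± 5.10), CLDN18 (51.7 ± 7.51), CLDN3 (33.6 ± 11.7), CLDN4 (31.4 ± 12.3) and OCLN (16.9 ± 3.15) to CLDN1 (14.6 ± 2.14). Neighbours from CLDN5 to CDH1, TJP1 to CLDN18, CLDN3 to CLDN4 and OCLN to CLDN1 lay within their spread. In PD, CLDN5 came first (291 ± 139 CPM per kilobase, SD, n = 4), CDH5 stood at 58.3 ± 28.9 and TJP1 came last (14.1 ± 6.58). The RefSeq exon length of CLDN5 was 893 bases, whereas the count table gives the gene a span of 2451 bases. The place of CLDN5 in both orders depends on that length, and no other length was tried.

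As a description over the 27 libraries, the 3 genes whose log2 CPM deviations from the pig mean were most like each member were sought among 12499 named genes. For CDH1 they were CCDC6, CD44 and ZRANB1 (Pearson r of 0.955, 0.954 and 0.949), and within GS alone r was 0.967 to 0.974. For OCLN they included PLEKHA1 and SELENOI (0.953 and 0.947), and for CLDN1 ARID5B, PLAUR and PRDM1 (0.826 each). For CLDN4 they were SIK1, PHLDA2 and RIPK4 (0.898, 0.898 and 0.893), and for CDH5 CRIM1, KHDRBS1 and ERG, the last an endothelial transcription factor (0.957, 0.955 and 0.950). For CDH5, r with these 3 genes was 0.58, 0.49 and 0.75 within GS and 0.98, 0.98 and 0.96 within PD, where the 2 libraries that stood apart lie, and 0.82, 0.80 and 0.99 within the other 10 PD libraries. CLDN18 was nearest to DSC2, CAV2 and SECISBP2L (0.957, 0.955 and 0.950), TJP1 to NUMB, NIBAN1 and ABLIM1 (0.933, 0.926 and 0.921), CLDN5 to APOA1, CCDC9 and TRIM47 (0.890, 0.876 and 0.867) and CLDN3 to PLPPR3, SEPTIN9 and PRX (0.907, 0.871 and 0.869). Within GS alone these were 0.67, 0.60 and 0.26 for CLDN18, 0.57, 0.71 and 0.80 for TJP1, 0.87, 0.70 and 0.77 for CLDN5 and 0.55, 0.32 and 0.78 for CLDN3, and within PD 0.906 to 0.979, or 0.701 to 0.973 without the 2 libraries that stood apart. Among members, CDH1 and OCLN had r of 0.96 within GS and 0.73 within PD, and TJP1 and CDH5 had −0.26 within GS and 0.95 within PD. Without those 2 libraries the values within PD were 0.76 and 0.94. All points share library depth and the length trend.

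Other junction genes moved in both directions. The 6 lists below hold junction genes and, as the last list, repressors of CDH1 and claudin genes. Over these lists, 18 of 61 genes tested were called at 6h in GS (29.5%, beside 28.5% of all genes), and 24 of 61 at 12h (39.3%, beside 38.4%). In PD 3 of 60 were called at 12h (5.0%, beside 5.98%). Among 6 other claudins tested of 16 listed, CLDN6 rose and CLDN11, the claudin of myelin and of the testis barrier, fell in GS. CLDN6 changed by 1.85 at 6h (edgeR, adjusted p = 0.0184), and CLDN11 by −1.49 at 6h and −1.65 at 12h (edgeR, adjusted p of 0.00863 and 0.00319). Both were called in PD at 12h as well, at 3.23 and −1.92 (edgeR, adjusted p of 0.0488 and 0.0189). In single PD pigs the change at 12h ran from 1.24 to 6.18 for CLDN6 and from −2.43 to −1.48 for CLDN11. The other 4 claudins were not called in these comparisons. The median of the list was 0.14 at 12h in GS, beside −0.076 over all genes tested.

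Among 9 other membrane proteins of the tight junction, 3 rose at 6h in GS, and at 12h 2 rose and 2 fell. LSR, a protein of contacts between 3 cells, rose by 0.83 and 0.998, and its partner MARVELD2 (tricellulin) by 0.52 and 0.72 on the log2 scale, both in 5 of 5 pigs (edgeR, adjusted p of 0.00617 and 0.00151 for LSR and of 0.0294 and 0.00428 for MARVELD2). MARVELD3 fell by 0.66 at 12h (edgeR, adjusted p = 0.0365). None of the 9 was called in PD.

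Among 17 scaffold and polarity proteins, 2 rose and 3 fell at 6h in GS, and 5 rose and 3 fell at 12h. MAGI1 rose by 0.43 and 0.52 in GS, whereas PATJ fell by 0.57 and 0.61 and TJAP1 by 0.66 and 0.90 (edgeR, adjusted p of 0.0109, 0.00275, 0.0101, 0.00531, 0.00573 and 0.000673). The median of the list was −0.13 at 12h in GS and 0.29 in PD, where 1 of 16 genes tested was called, higher.

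Among 16 other adherens junction proteins, 3 rose and 2 fell at both times in GS and none was called in PD. CTNNA1 (alpha-catenin), which links cadherins to actin, rose by 0.32 and 0.42, and VEZT by 0.53 and 0.71 (edgeR, adjusted p of 0.0255, 0.0053, 0.0126 and 0.00177). CDH2 (N-cadherin) fell by 0.87 and 0.9995, and CTNND1 (p120-catenin), which stabilises cadherins at the membrane, by 0.53 and 0.45 (edgeR, adjusted p of 0.0133, 0.00448, 0.0102 and 0.0162). NECTIN4 rose by 1.07 at 6h (edgeR, adjusted p = 0.00773).

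Of 7 desmosome proteins tested, 2 rose at 6h and 3 at 12h in GS and none fell. PKP3, a plakophilin of epithelial desmosomes, rose by 1.32 and 1.37, PERP by 0.89 and 0.93, and DSC2 by 0.50 at 12h (edgeR, adjusted p of 0.00564, 0.00316, 0.0016, 0.000686 and 0.0132). The median of the list at 12h was 0.33 in GS and 0.82 in PD, where none was called.

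Of 6 repressors of CDH1 and claudin genes, ZEB2 fell by 0.89 at 6h in GS, in 5 of 5 pigs, and SNAI1 rose by 1.07 at 12h (edgeR, adjusted p of 0.00283 and 0.00302). ZEB2 was also lower at 12h, by 0.56 in 4 of 5 pigs (edgeR, adjusted p = 0.0192). At 6h SNAI1 was not called (0.52, edgeR, adjusted p = 0.0976). None was called in PD.

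At 0h, 29 of the 61 genes of these lists were called between the groups (47.5%, beside 40.6% of all genes tested). Of the 17 scaffold and polarity genes 9 were lower in PD and 1, PARD6A, was higher (1.76, edgeR, adjusted p = 0.00779), with AMOTL2 lower by 2.08 (adjusted p = 0.00022). Of the 16 adherens genes 5 were lower, CDH11 by 1.596 and JUP by 1.17, and NECTIN3 was higher by 0.88 (edgeR, adjusted p of 0.00481, 0.000736 and 0.0336). Of the 7 desmosome genes DSP and PKP2 were lower, by 1.32 and 0.97, and PERP and PKP3 higher, by 1.84 and 0.96 (edgeR, adjusted p of 0.00586, 0.0159, 2.35e-05 and 0.00733). Of the 6 repressors 4 were lower, ZEB1 by 3.02, ZEB2 by 1.54 and SNAI2 by 0.89 (edgeR, adjusted p of 0.000448, 0.000569 and 0.0273). Among the claudins, CLDN23 and CLDN11 were higher, by 1.18 and 1.10, and CLDN6 lower, by 1.92 (edgeR, adjusted p of 0.0202, 0.0143 and 0.0367), and of the membrane proteins LSR and JAM2 were higher, by 1.152 and 0.78 (adjusted p of 0.0103 and 0.00674). No gene of any list was called in the interaction.

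**Figure D5:**
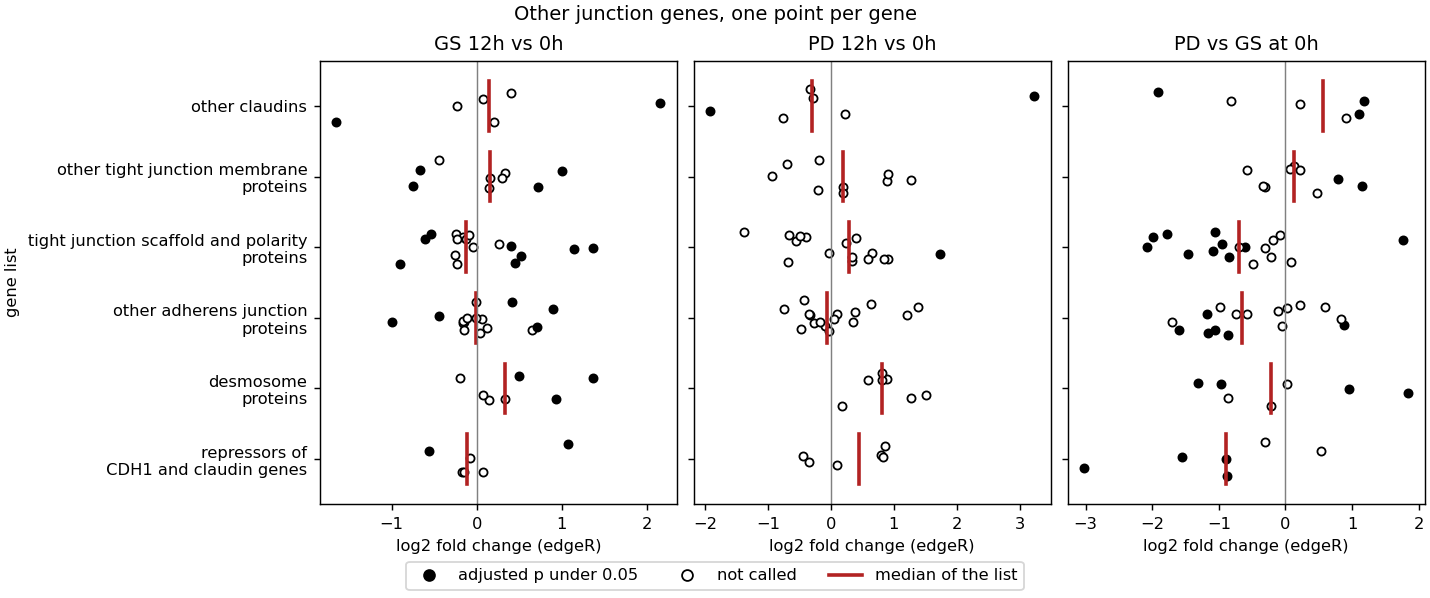
Fitted log2 fold changes of the other junction genes and of the repressors of CDH1 and claudin genes, 1 point per gene. They are shown for GS and PD at 12h and for PD against GS at 0h, filled where the edgeR adjusted p was under 0.05, with the median of each list as a red bar. Filled points lie on both sides of 0 in GS and at 0h, and 3 points are filled in PD at 12h.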

How the data were processed

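RNA was sequenced from 27 lung biopsies of 9 pigs. The deposited table holds raw counts per gene, which the authors made from trimmed reads (cutadapt 1.15) aligned with TopHat2 2.0.14 to Sscrofa11.1 and counted with featureCounts (Subread 1.6.0), as the submitters' processing notes list them; the strand setting was not given in the sources used here. Of 31908 genes, 16719 had a name in the table and 782 more were named by identifier. Samples were grouped by the treatment, time and pig in the labels.

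Changes were tested with edgeR 4.0.16 (R 4.3.3; TMM, filterByExpr, quasi-likelihood test, two-sided, Benjamini-Hochberg over all genes tested, called at an adjusted p under 0.05), per group over the 3 times with the pig as a block, since same-numbered samples come from 1 animal. Residuals of libraries of the same pig correlated by 0.517 on average in GS (0.352 to 0.728) and 0.116 in PD (−0.215 to 0.42). The 0h comparison had no block and the difference of changes was an interaction over all 27 libraries. Ratios of 2 genes used counts plus 0.5. Some of the edgeR fits were run on simulated counts with a fixed spread per group and no effect of pig, and no outcome is given here. Alternatives were DESeq2 1.42.0, other scalings, filters and designs, and leaving out each pig.

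The members, the other gene lists and the marker lists were chosen with earlier results of these data known. All members were named; from the other lists, at most 3 genes per direction, taken by size of change from called genes that moved the same way in all pigs. Some genes that these rules name are not reported here. Gene lengths and promoters came from RefSeq for Sscrofa11.1 and may differ from the Ensembl models that were counted. Intervals of depth cover counting error only.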

Additional observations from a re-analysis of the deposited data

Results flagged for a closer look

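One value stood far from the rest of its group. CLDN4 in GS pig 9 at 12h was at 12.6 CPM, and the nearest of the other 4 GS pigs at 12h was at 99.8 CPM, a gap of 0.721 of the whole range on the log2 scale. Of 54 groups of 4 or 5 libraries tested this was the 1 outlier, and chance flags about 1 in 20 groups. The library had 33918565 counts, and that of pig 17 at 12h, which held the 99.8 CPM, had 32984040. Across times, libraries of pigs 9 and 17 had 26335584 to 41802541 counts, and those of pigs 44, 55 and 77 had 51708598 to 67522703. The change of CLDN4 at 12h was −1.49 and 0.70 in pigs 9 and 17 and 1.21 to 2.32 in the others. The part of depth in these changes was not tested.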

How the results depend on the processing

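The rise of CDH1 in GS was called in 13 of 13 alternatives at both times, that of OCLN in 11 of 13 at 6h and 12 of 13 at 12h, and that of CLDN1 at 12h in 3 of 13. At 0h TJP1, CDH5 and CLDN5 were called in 15 of 15 alternatives, CLDN1 in 13 and CLDN4 in 7. Causes of the changes below were not tested.

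Without the replicate block 1 member was called in GS at 6h and 1 at 12h, and signs turned for CLDN18 in GS at 6h (0.023), CLDN3 and CLDN5 in PD at 6h (−0.030 and −0.036), and, in the difference of changes, CLDN4 at 6h (−0.0081) and CLDN3 and CLDN18 at 12h (0.28 and 0.15). With 1 fit of all 27 libraries 1 member was called in GS at 6h and 2 in PD at 12h, and CLDN18 in GS at 6h was 0.0082. DESeq2 called 4 members in GS at 6h, 5 at 12h and 1 in PD at 12h, and CLDN18 in GS at 6h was 0.028, as it was with the size factors of DESeq2 in edgeR. With a fold of at least 2 required, 0 members were called in GS at 6h and 1 at 12h, beside 2057 and 2911 of all 18594 genes. With only the 2 times compared, CLDN18 in GS at 6h was 0.030, CLDN3 in PD was −0.21 at 6h and −0.23 at 12h and CLDN18 in PD at 12h was −0.10.

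Under total counts 3 members were called at 0h, beside 7244 of 16477 genes, 2016 higher and 5228 lower. Signs turned for CDH5 in GS at 6h and 12h (−0.15 and −0.065), CLDN18 in GS at 12h (−0.012), CLDN3, CLDN18, TJP1 and CDH5 in PD at 12h (−0.095, −0.19, −0.11 and −0.15), and OCLN and CDH1 at 0h (−0.082 and −0.18). Without a filter on low counts CLDN18 in GS at 6h was 0.0031. With the length and GC dependence removed, 2 members were called in PD at 12h, CLDN18 and CDH5 in GS at 6h were 0.026 and −0.0086, CLDN18 in PD at 12h was −0.050, and the differences of CLDN3 and CLDN5 at 6h were 0.038 and 0.48. With PD pig 2 at 12h and PD pig 4 at 0h left out, 1 member was called in PD at 12h, CLDN3 and CLDN18 in PD at 6h were −0.023 and −0.086, CLDN3 in PD at 12h was −0.91, and the differences were −0.14 for CLDN18 at 6h and −0.37, −0.18 and 0.063 for CLDN4, CLDN5 and CDH5 at 12h. The difference of the CLDN4 to CLDN18 ratio at 6h was 0.56 without PD pig 4, whose 0h library stood apart.

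Leaving out 1 pig at a time, 2 to 4 members were called in GS at 6h, 0 to 2 in PD at 12h and 0 to 1 in the difference at 6h. Changes ranged in GS at 6h from −0.14 to 0.11 for CLDN18 and from −0.11 to 0.15 for CDH5. In PD at 6h they ranged from −0.32 to 0.21 for CLDN3, −0.39 to 0.35 for CLDN5 and −0.070 to 0.77 for CLDN18. In PD at 12h they ranged from −0.93 to 0.88 for CLDN3, −0.24 to 1.09 for CLDN5, −1.01 to 1.06 for CLDN18, −0.36 to 0.85 for TJP1 and −0.44 to 0.90 for CDH5. At 0h CLDN18 ranged from −0.66 to 0.0013. The differences at 6h ranged from −0.15 to 0.83 for CLDN4 and −0.11 to 0.74 for CLDN18. At 12h they ranged from −0.54 to 0.16 for CLDN1, −1.48 to 0.26 for CLDN3, −0.60 to 1.20 for CLDN4, −0.47 to 0.81 for CLDN5, −1.26 to 0.82 for CLDN18, −0.20 to 0.42 for OCLN, −0.21 to 1.04 for TJP1 and −0.65 to 0.73 for CDH5. Ratios ranged from −0.90 to 0.58 for CDH1 to CDH5 at 12h, −2.21 to 1.44 for CLDN18 to CLDN5 at 12h, and −1.29 to 0.56 and −1.29 to 2.52 for CLDN4 to CLDN18 at 6h and 12h.

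Over all genes, the calls in PD were 22 at 6h and 930 at 12h. They were 411 and 3561 with both libraries left out, 177 and 3003 with the length and GC dependence removed, 100 and 1488 without the replicate block, 437 and 2767 by DESeq2, 512 and 4093 in the fit of all 27 libraries, and 139 and 4 with only the 2 times compared. Leaving out 1 pig gave 0 to 98 calls at 6h and 0 to 4000 at 12h. In GS they were 5295 and 7136, against 1731 and 3083 without the block, and without 1 pig 2720 to 4828 and 4639 to 7585, fewest without pig 44. In the difference of changes they were 0 at both times, against 254 and 153 without PD pig 2.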
